A study of Zea mays with 4 samples.

Results

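A set of 243 gene models stood higher in 1 library of maize central starchy endosperm than in the other three. The members were chosen by measured values: a gene model was taken when its level in replicate 4 was at least 1.5 times its highest level in replicates 1 to 3, when its mean level over the 4 libraries was at least 10 RPM, and when it was not among the 150 gene models with the highest means. RPM stands for the reads of a gene model per 1000000 reads counted in its library, and was obtained by scaling the deposited signal. All criteria were met by 248 of 110028 gene models, and models with equal reads in every library were counted once, which left 243. The same criteria other than the fold were met by 11001 distinct models, called eligible here, so the fold was passed by 2.21% of them. Because the values of replicate 4 chose the set, its height there is a description and carries no test.

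All 4 libraries carry the same labels: inbred line B73, grown in a greenhouse and self-pollinated, central starchy endosperm, 6 days after pollination (DAP). Tissue was cut from kernel sections by laser-capture microdissection, and its polyadenylated RNA was treated with DNase, amplified and sequenced from barcoded libraries. No treatment, other genotype or other time point sets replicate 4 apart in the labels, and they leave unstated which plants, ears or kernels each replicate was taken from. Differences between libraries may therefore be technical, and fewer cells of a type and less RNA per cell cannot be told apart in such bulk samples.

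The starchy endosperm is the inner storage tissue of the cereal kernel. Its cells first divide, later replicate their DNA without dividing, and then fill with starch granules and with zeins, the storage proteins of maize. Genes of the heat shock, redox and drought responses are the usual readout of stress in plant cells, though many of them are also used during normal seed development. Small heat shock proteins hold unfolding proteins in solution, ascorbate peroxidases and superoxide dismutases remove reactive oxygen, and ASR proteins are small hydrophilic proteins named for their response to abscisic acid, stress and ripening.

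Counted reads ranged from 3432952 to 5477465 per library, and replicate 4 was the deepest. With the same fold and the same eligible models, 38 models (0.345%) stood out as high in replicate 1, 45 (0.409%) in replicate 2 and 20 (0.182%) in replicate 3. In the opposite direction, 912 eligible models (8.29%) lay in replicate 4 at or below the lowest of replicates 1 to 3 divided by 1.5. Replicate 4 was above each other library at 26.6% of eligible models and below each at 44.7%. The median eligible model had 0.836 times its highest level of replicates 1 to 3. Scaling with TMM, which sets libraries level on the bulk of genes, moved that ratio up by 0.13 on the log2 scale, to 0.920. Replicate 4 then lay above each other library at 38.8% of eligible models and below each at 32.6%. All 243 members stayed in the set under TMM, which held 474 models, and without replicate 3 the set held 519. Of the 150 models left out for their level, 3 passed the fold as well.

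The members together took 11339.8, 11165 and 12752 RPM in replicates 1 to 3 and 22428 RPM in replicate 4. That is 1.13%, 1.12% and 1.28% of counted reads against 2.24%. Relative to the mean of replicates 1 to 3, 11752 ± 870.2 RPM (SD, n = 3), the sum in replicate 4 was 1.91 times as high. The models lower in replicate 4 took from 38496 to 44136 RPM in replicates 1 to 3 and 18359 RPM in replicate 4. Both sets were chosen on replicate 4 against the other libraries. The rise of one sum and the fall of the other there follow from that choice. The high set is smaller than the low one in number, and it took fewer reads in replicates 1 to 3 and more in replicate 4.

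**Figure D1:**
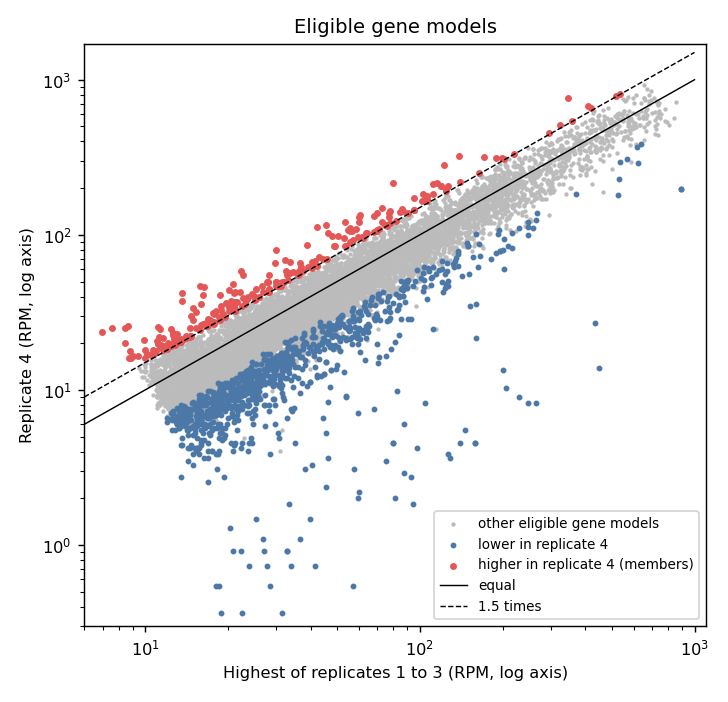
Level in replicate 4 against the highest level in replicates 1 to 3 for eligible gene models, both in RPM on log axes. Red points are the 243 members, which lie on or above the dashed line of 1.5 times by the way they were chosen; blue points are the 912 models lower in replicate 4, grey points are the other eligible models, and 2 models at 0 in replicate 4 are not drawn. The members form the upper edge of the cloud, while many blue points lie far below it.

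Most members differed from the other libraries by a modest fold. The ratio of replicate 4 to the highest of replicates 1 to 3 had a median of 1.66, with an interquartile range of 1.56 to 1.85 and a highest value of 3.39. Only 42 members reached a ratio of 2, 14 reached 2.5 and 3 reached 3. At the lower edge, the last members were GRMZM5G860715 with a ratio of 1.5001, HP3 with 1.5015 and LOC100277683 with 1.5015, and the models just outside were GRMZM5G876708 with 1.4995, GRMZM2G020126 with 1.4994 and LOC100274051 with 1.4986. Among models with gene names, WTF1 (1.48), RNRS3 (1.47) and arf1 (1.46) lay just outside. By level, the named members nearest the minimum were asr1, LIP1P-2 and wox2A with means of 11.5, 12.8 and 14.4 RPM, while EREB160, pglcat7 and Rbl1 passed the fold at means of 8.48, 7.66 and 7.53 RPM and were left out. The set is thus cut from a continuous range and has no gap at its edges.

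The mean level over the 4 libraries was similar in members and in the models they were drawn from. In members it had a median of 31.1 RPM and ranged from 10.1 to 565 RPM, and the median over all eligible models was 31.2 RPM. That mean includes replicate 4, which the rule required to be high in members. The median ratio of replicate 4 to the mean of replicates 1 to 3 was 1.91 in members and 0.923 in eligible models. Similar means over the 4 libraries therefore do not show similar levels in replicates 1 to 3. Of the members 71 averaged under 20 RPM, 92 from 20 to 50 RPM, 46 from 50 to 100 RPM and 34 more than that. The last class makes up 14.0% of members and 15.0% of eligible models.

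Replicate 3 lay between replicate 4 and the other two for many members, a feature the rule did not ask for. It was the highest of replicates 1 to 3 for 156 of 243 members (64.2%), against 31.3% of eligible models. In contrast replicate 2 was the highest of these for 20.6% of members and 36.0% of eligible models. For 16 members (6.58%) replicate 3 was itself at least 1.5 times both replicates 1 and 2, against 0.809% of eligible models. Among these graded members LOC100216697 (GRMZM2G145562) had 40.2, 24.3, 79.9 and 215 RPM in replicates 1 to 4, and GRMZM2G436295, whose reads equal those of GRMZM5G843352, had 55.1, 82.3, 139 and 323 RPM. The pair GRMZM2G144621 and LOC100281032 (GRMZM2G144648) had 8.74 and 9.03 RPM in replicate 1, 8.84 and 9.03 in replicate 2, 21.2 and 22.1 in replicate 3 and 43.1 and 42.9 in replicate 4. These genes were picked out after their values were seen, and the models of the pair differ by at most 3.81% in any library, so both may hold the same reads.

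Of the members 175 matched an entry of the RefSeq gene table, 154 of them with a locus number only, and 68 matched none. A gene name was carried by 21 members (8.64%), near the 9.04% of eligible models. None of the 171 members that could be placed on a chromosome of the reference lay directly beside another member among protein-coding genes. Members that matched no entry could not enter this check, among them GRMZM2G144621 of the pair above. It therefore cannot show that members lie apart on the chromosomes. Because few members carry a name, the functions described below concern a small part of the set. Named members are grouped by function only to order the text. Apart from the gene lists, no share over eligible models was taken for such groups.

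Genes with names tied to stress included the members with the highest ratios among named genes. The gene hsp18f (GRMZM2G083810), for a small heat shock protein, had 13.4, 13.6 and 9.04 RPM in replicates 1 to 3 and 42.2 RPM in replicate 4. Its ratio to the highest other library was 3.09. The exact 95% Poisson interval in replicate 4, which covers counting error only, ran from 36.9 to 48.0 RPM. These levels rest on 46, 74, 43 and 231 reads.

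The gene asr1 (GRMZM2G136910), for an ASR protein, had 4.37, 8.29 and 8.41 RPM in replicates 1 to 3 and 25.01 RPM in replicate 4, a ratio of 2.97 from 15, 45, 40 and 137 reads. The unnamed model GRMZM2G136981 differed from it by at most 4.26% in any library, so both may hold the same reads although they count as 2 members. Replicate 1 was the lowest library for asr1, and replicate 4 lay clear of all others.

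The ascorbate peroxidase gene apx2 (GRMZM2G140667), whose product turns hydrogen peroxide into water, had 98.7, 106, 122 and 283 RPM in replicates 1 to 4. Its ratio of 2.31 was the highest among named members with a mean above 50 RPM. CSD4 (GRMZM5G895313), for a copper/zinc superoxide dismutase, was the most abundant named member, with 322, 352, 421 and 660 RPM and a ratio of 1.57. In both genes the order of the libraries was the same, with replicate 3 second and replicate 1 lowest.

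Most other genes of the stress lists were not members. Of 47 eligible models on 5 stress lists, 3 were members (6.38%, against 2.21% of eligible models, a contrast the rule itself used). Of these 3, asr1 reached the minimum mean only through replicate 4. With TMM library sizes the set grew to 474 models, while the stress lists again held 3. Replicate 4 was highest at 15 of the 47 and lowest at 20, and under TMM at 21 and 17. Over all eligible models it was highest at 26.6% and lowest at 44.7%, and under TMM at 38.8% and 32.6%. The counts per list below stand beside these shares. The median ratio over the 47 was 0.882, beside 0.836 over all eligible models.

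Among heat shock genes hsp18f was the only member of 8 eligible models. HSP90-2, a chaperone of signalling proteins, had 513, 576, 598 and 609 RPM, and HSP60-1, an organellar chaperonin, 358, 438, 429 and 434 RPM. The small heat shock gene hsp22 lay on the other side, with 184, 235, 187 and 141 RPM, as did the model named Hsp70 with 49.5, 45.7, 29.7 and 25.9 RPM. The heat shock factor Hsf12 had 14.6, 14.7, 15.8 and 21.4 RPM. The most abundant model of the list, hsp70-4, was among the 150 left out and was highest in replicate 3, at 1967 RPM against 1366 RPM in replicate 4.

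Redox genes were divided in the same way. Of 13 eligible models 4 were highest and 7 lowest in replicate 4 (6 and 6 under TMM), and apx2 was the only member. Catalase cat1 had 165, 168, 171 and 214 RPM and the glutathione reductase gene gsr1 25.9, 34.3, 30.9 and 45.8 RPM. In contrast the superoxide dismutase gene sod4 had 78.9, 125, 73.2 and 47.8 RPM, the dehydroascorbate reductase gene dhar3 103, 93.6, 70.5 and 43.6 RPM, and the glutathione transferase gene gst1 364, 402, 340 and 242 RPM. CSD4 was on no list, and the other superoxide dismutase models in the redox list had ratios from 0.384 (sod4) to 1.22 (sod-1a).

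On the list for dehydration and abscisic acid, asr1 was the only member of 13 eligible models, and 7 of the 13 were lowest in replicate 4 (5 under TMM). The kinase genes SnRK2.7 and SnRK2.6, whose family acts in abscisic acid signalling, had 22.1 and 19.4 RPM in replicate 4 against at least 37.9 and 22.9 RPM in the other libraries. No member came from the 11 eligible wound and defence models or the 2 eligible low-oxygen models. The most abundant wound and defence model was ZIM34, from a family of jasmonate signalling repressors, with 164, 181, 182 and 226 RPM. Of the fermentation genes, pdc3 (pyruvate decarboxylase) had 119, 113, 116 and 144 RPM and adh2 (alcohol dehydrogenase) 16.9, 16.2, 13.9 and 15.9 RPM. The most abundant low-oxygen models, eno1 and adh1, belong to the 150 left out and had ratios of 1.05 and 1.32.

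**Figure D2:**
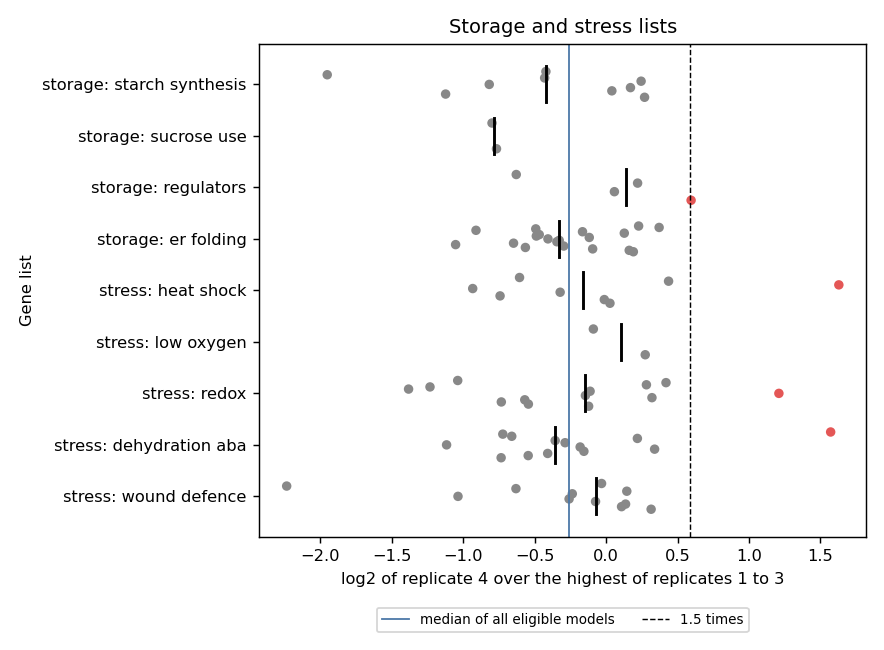
Each point is an eligible gene model of a storage or stress list, placed by the log2 of its level in replicate 4 over its highest level in replicates 1 to 3. Red points are members, short black bars the list medians, the blue line the median of all eligible models and the dashed line the fold that chose the members. Single genes (hsp18f, asr1 and apx2) lie far to the right of lists whose other models spread around the median of all models, and nkd1 lies at the dashed line.

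Of genes matched by name to the storage lists, only nkd1 (GRMZM2G129261) was a member, out of 34 eligible models on 5 lists (2.94%, beside 2.21% of eligible models). This zinc finger factor of aleurone and starchy endosperm had 44.0, 44.8, 69.6 and 105 RPM in replicates 1 to 4. Its ratio was 1.51, just inside the rule, and at a ratio of 2 no listed storage gene was left. With TMM library sizes the set grew to 474 models, while the storage lists again held 1. Replicate 4 was highest at 12 of the 34 and lowest at 11, and under TMM at 14 and 8. The median ratio over the 34 was 0.792, beside 0.836 over all eligible models. A storage gene without a name in the reference could not be matched to a list, so unnamed members may include such genes. Replicate 3 was itself above replicates 1 and 2 in nkd1. Its duplicate nkd2 had 14.0, 22.5, 23.3 and 27.2 RPM, the bZIP factor ohp1 36.1, 35.002, 34.9 and 37.6 RPM, and ohp2 18.6, 21.7, 15.6 and 14.1 RPM. The most abundant storage regulator, the endosperm PLATZ factor gene fl3, was among the 150 left out and had 2674, 2188, 2107 and 1399.7 RPM, lowest in replicate 4. The zein activator gene o2 was at 0 in every library, so markers of the filling endosperm were largely absent at this age while fl3 was abundant.

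Enzymes of starch synthesis lay on both sides. Of 18 matched models 9 were eligible. Of these 4 were highest and 3 lowest in replicate 4, also under TMM, and none was a member. Over all eligible models the shares were 26.6% and 44.7%, and under TMM 38.8% and 32.6%. One of the 4 highest in replicate 4 is GRMZM2G141399, taken as the starch synthase gene du1, whose RefSeq record also carries the name ha2. The model with the starch branching enzyme name ae1 had 212, 174, 195 and 256 RPM, and the starch synthase gene ss1 25.3, 27.3, 24.8 and 32.3 RPM. Opposite to these, GRMZM2G106213 of the ADP-glucose pyrophosphorylase name Agp2 had 126, 138, 99.9 and 63.2 RPM, and the debranching enzyme gene zpu1 28.3, 13.1, 11.1 and 7.30 RPM. The median ratio of the 9 was 0.747. Other genes of the list were too low to be judged by the rule: wx1 was at 0 in every library, and sh2, bt2 and bt1 averaged 0.460, 0.778 and 0.144 RPM.

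The other storage lists held no member. Both eligible models of sucrose use, the fructokinase gene frk2 and the invertase gene ivr2, had ratios of 0.588 and 0.575. Others of that list lay below the minimum level: sus1 and sut1 averaged 0.827 and 0.874 RPM, and SH-1 had 0, 0, 0 and 1.28 RPM. Of 19 eligible models for folding in the endoplasmic reticulum, where zeins are made, 5 were highest and 6 lowest in replicate 4 (7 and 4 under TMM). The chaperone gene bip1, the usual sign of folding stress there, had 166, 302, 269 and 204 RPM, so replicate 4 lay inside the range of the others. The most abundant model of that list, PDIL1-1, was among the 150 left out, with a ratio of 0.735. No zein model was eligible: 28 of 30 were at 0 in every library. The 27-kDa gamma-zein gene gz27 had 0.583, 0.184, 0.631 and 3.83 RPM, where 3 reads are worth 0.548 RPM in replicate 4 and 0.874 RPM in replicate 1.

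Members of signalling pathways included 2 genes that act with calcium. CaM1 (GRMZM2G152891), for the calcium sensor calmodulin, had 95.8, 100.4, 120 and 206 RPM in replicates 1 to 4, a ratio of 1.72. The unnamed member GRMZM2G452760 differed from CaM1 by at most 0.0886% in any library, so both may hold the same reads. The calcium-dependent protein kinase gene cdpk1 had 23.0, 21.6, 23.1 and 35.8 RPM, a ratio of 1.55, and replicates 1 to 3 averaged 22.6 ± 0.880 RPM (SD, n = 3).

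Further signalling members showed wider and narrower spread among the other libraries. HP3, for a histidine phosphotransfer protein of the cytokinin pathway, had 40.5, 22.7, 29.2 and 60.8 RPM, a ratio of 1.5015. Replicates 1 and 2 of HP3 thus differed by more than the fold that chose the set. Its relatives HP1 and hp2 did not reach the fold, with 412 RPM against 339 to 421 RPM and 47.1 RPM against 63.1 to 103 RPM. SUMO1b, for a ubiquitin-like protein modifier that plant cells attach to many proteins under heat, had 86.5, 80.0, 86.4 and 143 RPM, a ratio of 1.66.

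Regulators of growth and development were also among the named members. GIF1, a transcriptional coactivator that promotes cell proliferation with GRF factors, had 59.1, 56.0, 77.0 and 131 RPM in replicates 1 to 4 and a ratio of 1.70. The GATA factor gene GATA17 had 19.5, 15.8, 21.0 and 34.7 RPM. The homeobox gene wox2A, used as a marker of the early embryo, had 11.7, 12.7, 11.99 and 21.4 RPM from 40, 69, 57 and 117 reads. In all 3 genes replicate 4 stood clear of the rest, by ratios from 1.65 to 1.70.

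Cytoskeleton and translation each gave few members. Actin-7 was graded, with 30.003, 28.7, 49.2 and 84.7 RPM and a ratio of 1.72, while ACT-1 had 94.1, 115, 102 and 104 RPM. The beta-tubulin gene tub4 had 14.0, 13.8, 14.1 and 22.3 RPM, and replicates 1 to 3 averaged 14.0 ± 0.138 RPM (SD, n = 3). Other eligible tubulin models did not reach the fold: TUB8 had 30.003, 26.3, 23.6 and 15.9 RPM and tua5 172, 199, 210 and 262 RPM. Of 18 eligible cytoskeleton models 10 were lowest in replicate 4, and 10 under TMM, most of them kinesin genes. The share over all eligible models was 44.7%, and 32.6% under TMM.

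The translation initiation factor gene tif1, also named GOS2, had 59.4, 47.0, 61.6 and 97.5 RPM, a ratio of 1.58. It was the only member of 37 eligible models for protein synthesis, mostly ribosomal proteins, while 2.21% of all eligible models were members. Replicate 4 was nevertheless highest at 20 of these and lowest at 7, and under TMM at 28 and 2, with a median ratio of 1.01 beside 0.836 over all eligible models. Of all eligible models 26.6% were highest and 44.7% lowest there, and 38.8% and 32.6% under TMM. The elongation factor gene EF1-A, one of the 150 models left out, had 6041, 5139, 6314 and 8856 RPM. The whole list summed to 25432, 24385, 25613 and 29006 RPM, and without EF1-A to 19390, 19246, 19299 and 20151 RPM, so that 1 gene carried most of the excess in replicate 4.

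Several named members act in plastids, the compartment in which endosperm starch is made. No plastid list was drawn up, and toc34B and fad8 were chosen after their values were seen. The protein import receptor gene toc34B had 13.1, 13.8, 15.8 and 24.5 RPM, a ratio of 1.55. The plastid 2-oxoglutarate/malate carrier gene pOMT1 had 78.1, 76.5, 67.9 and 118 RPM, a ratio of 1.52. The fatty acid desaturase gene fad8 had 17.5, 17.9, 14.9 and 27.4 RPM, a ratio of 1.53. LIP1P-2, for a plastid lipoyl synthase, had 10.2, 10.1, 11.6 and 19.2 RPM. For pOMT1 and fad8 replicate 3 was the lowest library, unlike in most members. The remaining named members were the nitrilase gene NIT1 (16.0, 17.9, 17.9 and 30.9 RPM) and hao1 (121, 117, 125 and 193 RPM).

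**Figure D3:**
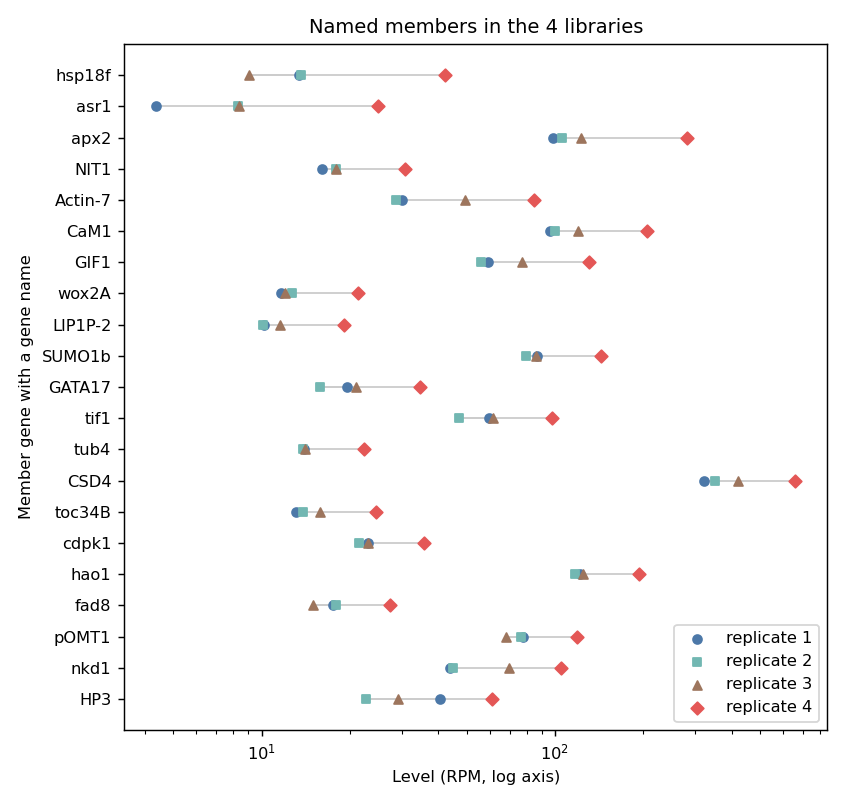
Levels of the 21 members with a gene name in each of the 4 libraries, in RPM on a log axis, ordered by the ratio of replicate 4 to the highest other library. Red diamonds (replicate 4) lie to the right of every other symbol by the way the genes were chosen, from 42.2 against 13.6 RPM in hsp18f to 60.8 against 40.5 RPM in HP3. Brown triangles (replicate 3) lie second in many rows, as in Actin-7 and nkd1.

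The members with no gene name held the highest ratio and the highest level of the set. LOC100285965 (GRMZM2G177110) had 4.08, 5.90, 6.94 and 23.6 RPM, a ratio of 3.39 from 14, 32, 33 and 129 reads. GRMZM2G366607 had 7.57, 5.16, 6.73 and 25.01 RPM, a ratio of 3.30. These models averaged 5.64 and 6.49 RPM in replicates 1 to 3, so they too reached the minimum mean only through replicate 4. The same holds for further members, which were not counted. Examples are GRMZM2G136981, GRMZM2G513713 and LOC100277116, with means of 7.22, 9.28 and 7.04 RPM in replicates 1 to 3. By level, LOC100382290 (GRMZM2G172932) led with 468, 448, 534 and 812 RPM, followed by LOC100284989 (GRMZM2G003752) with 428, 513, 517 and 789 RPM. Both abundant models had ratios near the threshold, 1.52 and 1.53. A higher ratio at a similar level, chosen after its values were seen, was that of LOC100282768 (GRMZM2G104918), with 330, 317, 347 and 762 RPM and a ratio of 2.19.

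Other lists gave no member from 13 eligible models of the cell cycle and replication, 38 of histones and chromatin, 13 of the cell wall, 15 of membrane transport and 4 of ubiquitin and the proteasome. HP3 was the only member of 18 eligible hormone models. Of all eligible models 2.21% were members, so lists this small can hold none or 1 without differing from the rest. Replicate 4 was lowest at 8 of the 13 cell cycle models (6 under TMM, and 13 of 19 with kinesin genes named krp kept), though the replication clamp genes pcna1 and pcna2 were highest there, with 308 RPM against 190 to 229 RPM and 318 RPM against 234 to 252 RPM. It was also lowest at 21 of the 38 chromatin models (13 under TMM). Over all eligible models it was lowest at 44.7% (32.6% under TMM), so under TMM the chromatin count is near the general share. Among cell wall models 7 of 13 were highest in replicate 4 (8 under TMM), led by the cellulose synthase gene CesA-5 with 146, 139, 175 and 231 RPM. The share over all eligible models was 26.6% (38.8% under TMM).

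Markers of neighbouring tissues also differed in replicate 4. The 15 matched models of the basal transfer layer, the nutrient-importing cells of the lower endosperm, summed to 353, 741 and 640 RPM in replicates 1 to 3 and 73.03 RPM in replicate 4, where bap-3a, betl3 and tcrr-1 were at 0. The 4 models of the embryo-surrounding region summed to 41.9, 45.3, 32.6 and 2.01 RPM, with esr-6 at 0 in replicate 4. EBE-1 of the transfer layer list differed from its other models, with 26.2, 22.1, 25.9 and 27.2 RPM. The summed level of both lists was many-fold lower in the library in which the members were high. The aleurone list, for the outer endosperm layer, summed to 135, 134, 127 and 109 RPM.

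The embryo list went the other way, with 25.6, 26.3, 32.0 and 46.6 RPM over 8 models. That sum rests on 2 genes, the member wox2A and the oleosin gene ole1 with 13.4, 13.4, 19.6 and 24.1 RPM, while 3 models were at 0 in every library, 4 were at 0 in replicate 4, and no other model averaged more than 0.361 RPM. The list of maternal and green tissue was carried by Ppdk1, which the endosperm also uses, and summed to 1057, 1155, 921 and 557 RPM. The part of these tissues in the levels of the members was not tested.

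**Figure D4:**
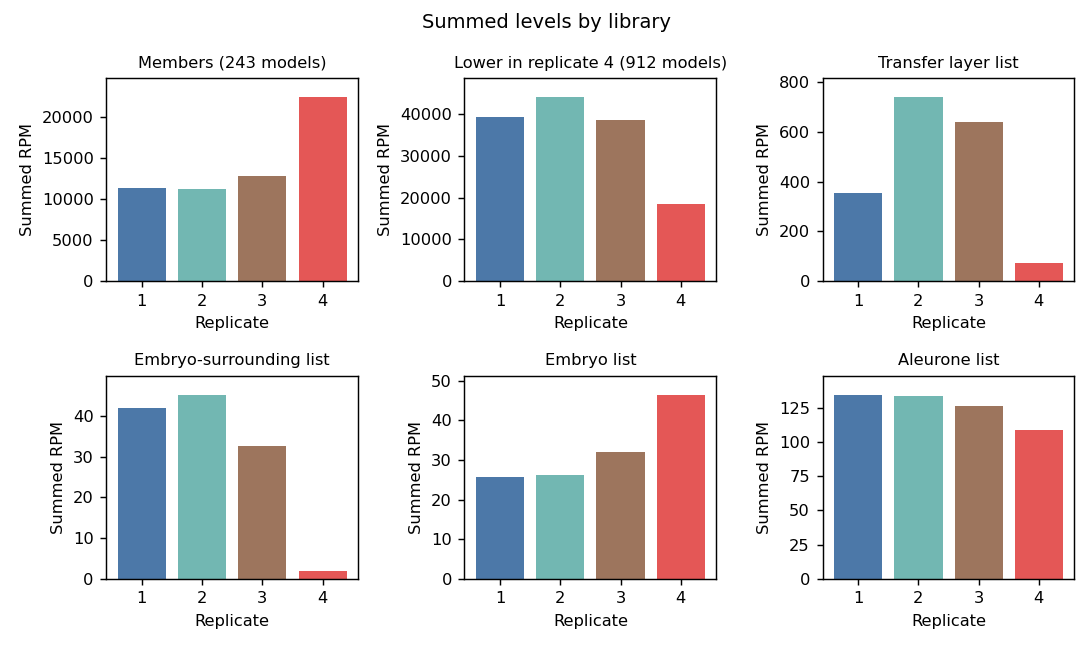
Summed RPM by library for the members, for the models lower in replicate 4 and for 4 marker lists, each panel on its own axis from 0. Bars are single libraries, with no error bars because each is 1 value. The members sum to between 11165 and 12752 RPM in replicates 1 to 3 and to 22428 RPM in replicate 4, where the transfer layer and embryo-surrounding lists are at 73.03 and 2.01 RPM and the embryo list is at 46.6 RPM.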

How the data were processed

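The authors deposited, per gene model and library, a scaled signal; the values show that each of the 4 libraries sums to 4773346. Bedtools is named in the submitters' processing notes without version or role; no source used here gives the aligner, genome build, annotation or strandedness. Every non-zero signal value was a whole multiple of the library's smallest within 0.01 of a read (100%), which gave the reads. In replicate 3 that step, 1.0039, lies close to 1, so its reads are less certain, though they were used like those of the other libraries. RPM does not depend on the step.

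RPM was computed with pandas 2.3.3; TMM factors came from edgeR 4.0.16 on the recovered reads. With 1 group no count test between groups exists, and none was run. The selection step was also run on simulated data. The settings and outcome of that run are not given here, so it does not show how reliably the rule picks members. Names came from the synonyms in a RefSeq table of Zm-B73-REFERENCE-NAM-5.0, which matched 18786 models, 2671 with a gene name; locus, clone and marker names were not counted as gene names. Reference positions served only to find members that neighbour each other.

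The members and the 23 gene lists were chosen with earlier results of these data known, and lists were trimmed by name after values were seen (among others, kinesin names left the cell cycle list and ha2 the membrane transport list). Named genes were the 12 named members with the highest mean, the 12 with the highest ratio, list members, the 3 models on each side of both thresholds, the 2 leading models without a name by level and by ratio, and the most abundant model of storage and stress lists without a member. The 2 named members outside this rule, toc34B and fad8, and other list genes were chosen after their values were seen. Spread between libraries may be technical. Alternatives changed scaling, fold, minimum level, the 150 models left out, equal reads, pseudocount and replicates.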

Additional observations from a re-analysis of the deposited data

Results flagged for a closer look

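Of 46 sets of 4 values examined (named members, summed sets and lists), 13 had a library far from the others, with a gap to the nearest library that took a share of the whole range above Dixon's 95% critical value. Members were chosen for a gap between replicate 4 and the rest, so for them and for their sum these shares are a description and cannot be set against chance. The share of the range taken by the gap below replicate 4 was 0.967 in tub4, 0.900 in hao1, 0.896 in SUMO1b, 0.891 in wox2A, 0.889 in cdpk1, 0.875 in NIT1, 0.872 in apx2, 0.861 in hsp18f and 0.841 in LIP1P-2. It was 0.859 for the summed RPM of the set.

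The summed levels of 3 of the 23 lists were set apart by replicate 4. All lists share the same 4 libraries, and lists were trimmed after values were seen, so this count cannot be set against chance. The zein list, with 0.583, 0.184, 0.631 and 4.02 RPM in replicates 1 to 4, had a share of 0.883, almost wholly from gz27. The cell wall list, at 3830, 3805, 3815 and 4257 RPM, had 0.945, and most of its excess came from 1 model, exg1, with 2762, 2797, 2757 and 3175 RPM; without exg1 the list summed to 1068, 1008, 1058 and 1083 RPM. The cell cycle list, at 953, 934, 932 and 1059.6 RPM, had 0.838; pcna1 and pcna2 were its most abundant models. With the kinesin names kept that list summed to 1513, 1525, 1463 and 1489 RPM and had no such gap, and with ha2 kept the membrane transport list had one below the others, at 906, 899, 893 and 823 RPM with a share of 0.839. Both lists were trimmed after their values were seen.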

How the results depend on the processing

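The size of the set depended on the fold, the minimum level and the scaling. It held 474 models with TMM library sizes, 42 at a ratio of 2, 858 at a looser ratio, 622 at a mean of at least 1 RPM, 872 with no minimum and 124 at 30 RPM, and from 278 to 519 with 1 of replicates 1 to 3 left out; the highest count was without replicate 3, which was the second highest library for most members. Keeping the 150 highest models gave 246 and counting models with equal reads separately 248. The looser settings contained all 243 members. The 5 pairs of near-equal members, counted once, would leave 238. The loci LOC100279161 and LOC100284862 each still stand for 2 members with unlike reads, so 238 is not a count of distinct genes. The median ratio of replicate 4 to the mean of replicates 1 to 3 was 1.91, and 2.11 with TMM, from 1.85 to 1.97 with a replicate left out, and 1.89 and 1.86 with pseudocounts of 0.5 and 1. The summed excess of the set over replicates 1 to 3 was 10676 RPM, and 12617 RPM with TMM, from 10382 to 11176 RPM with a replicate left out. Stress lists held 3 members, and 4 at a mean of 1 RPM; storage lists held 1, none (0) at a ratio of 2 and 3 at a mean of 1 RPM. Without replicate 4 the rule cannot be applied. No paired analysis was possible because there is 1 group. The lowest members rest on the fewest reads, down to 14 in replicate 1 for LOC100285965.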
